A study of Mus musculus with 15 samples.

Results

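The 10 genes described here encode the NRF2 transcription factor (Nfe2l2) and 9 enzymes of the antioxidant, glutathione and thioredoxin systems (Nqo1, Hmox1, Gclc, Gclm, Gsr, Txnrd1, Srxn1, Prdx1 and Prdx4). They were chosen by name from the 51912 gene identifiers of the deposited expression table, each symbol matched 1 identifier, and all 10 passed the filter on low counts. Their RNA levels were measured by polyA RNA-seq in 15 libraries of mouse B cells grown in culture, 3 biological replicates in each of 5 groups. All cells were wild-type, and the labels list no treatment. Culture began in every group with 6 days on 40LB, a fibroblast feeder line engineered to supply CD40 ligand and BAFF, and IL-4 was added at 100 ng/ml. The D6 group is the unsorted culture sampled at that point, so it can hold feeder cells. The other 4 groups were lifted off the feeders, kept for 2 more days without stimulation and then sorted on day 8 by isotype (IgE or IgG1) into PC and iGC, where PC are plasma cells and iGC is the labels' name for the cells that are not. Day, feeder contact, stimulation and sorting all change together between D6 and the sorted groups, and cannot be told apart. The labels do not say whether the biological replicates came from separate animals, so p-values measure the spread between these samples.

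NRF2 is held in the cytoplasm and sent for degradation by KEAP1, whose cysteines react with oxidants and electrophiles. When that hold is released, NRF2 pairs with a small MAF protein in the nucleus and binds antioxidant response elements (AREs) near genes for glutathione synthesis, thioredoxin reduction and detoxification, while BACH1 and BACH2 bind the same kind of element as repressors. Because the protein is controlled by its stability, the RNA level of Nfe2l2 is not a measure of NRF2 activity. Antibody secretion adds a separate demand, since each disulphide bond made in the endoplasmic reticulum (ER) by ERO1 oxidases yields hydrogen peroxide, which the ER peroxiredoxin PRDX4 can use to oxidise protein disulphide isomerases.

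To show where the NRF2 element lies in these genes, promoters were read from RefSeq (GRCm38.p6), which held 7 of the 10 genes with 9 start sites, 3 of them for Txnrd1. The ARE core, TGACNNNGC on either strand, was found in 12.4% of 32851 promoter windows of 300 bases (250 before and 50 after the start). It was found for Nfe2l2, Gclm, Txnrd1, Srxn1 and Prdx1, and not for Nqo1 or Prdx4. The 3 sequences below are shown because the start of the element lies 134 bases before the start of Gclm, 92 before the second start of Txnrd1 and 133 before that of Prdx1. They run 5′ to 3′ on the plus strand at chr3:122245307-122245556, chr10:82858956-82859178 and chr4:116685349-116685543. The Gclm stretch runs up to the start. The Txnrd1 and Prdx1 stretches were cut where an annotated exon of the gene begins. They end 27 and 55 bases short of the start from which the positions are counted. The Txnrd1 stretch precedes an internal start, lies inside the gene as annotated and overlaps an exon of the predicted gene Gm38560. Capitals mark the element, which reads on the opposite strand as TGACGGTGC, TGACAAAGC and TGACTCAGC.
Gclm: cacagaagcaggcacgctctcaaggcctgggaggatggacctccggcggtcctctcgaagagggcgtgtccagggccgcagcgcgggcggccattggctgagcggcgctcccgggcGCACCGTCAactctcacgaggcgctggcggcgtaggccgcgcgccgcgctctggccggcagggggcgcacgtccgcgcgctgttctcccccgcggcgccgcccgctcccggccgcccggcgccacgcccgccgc
Txnrd1: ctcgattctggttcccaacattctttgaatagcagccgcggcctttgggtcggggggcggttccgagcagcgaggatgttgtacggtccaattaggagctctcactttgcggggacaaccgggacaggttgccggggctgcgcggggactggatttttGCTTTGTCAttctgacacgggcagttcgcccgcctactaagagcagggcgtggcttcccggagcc
Prdx1: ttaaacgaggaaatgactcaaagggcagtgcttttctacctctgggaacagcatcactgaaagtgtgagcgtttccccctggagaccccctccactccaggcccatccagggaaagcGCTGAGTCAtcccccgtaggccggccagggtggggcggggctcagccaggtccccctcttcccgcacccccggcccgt
In Nfe2l2 the match to the core is TGACTCCGC, 240 bases before the start, and in Srxn1 it is TGACCTAGC, 28 bases after it. The bases before the Srxn1 start also hold TGAGTCAGC, which the core as searched does not cover. Motifs of the amino acid response (TGATGNAA, in 3.97% of windows) and of the unfolded protein response (TGACGTGG, in 0.676%) were not found in any of the 9 windows. Neither was the ER stress element, CCAAT and CCACG with 9 bases between them, which 0.119% of windows held. A match of letters is a description of the sequence, and no binding was measured.

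Depth ran from 17740876 to 54067953 estimated counts per library. Levels are given below as CPM, counts relative to the library total, after scaling the libraries by the trimmed mean of M-values (TMM), with SD over 3 libraries. A gene was called higher or lower at an edgeR adjusted p under 0.05 over the 15692 genes tested. Markers matched the sort: 8 plasma cell genes summed to 16770 to 19250 CPM in IgE PC and 9342 to 13730 in IgG1 PC. Elsewhere they summed to 372 to 746 CPM (iGC) and 494 to 527 (D6). Libraries also differed in RNA of other cells. The summed level of 14 fibroblast genes was 242.5 to 391 CPM at D6, 30.9 to 73.0 in the iGC groups and 22.8 to 37.9 in IgE PC. In IgG1 PC it was 204.8, 70.1 and 200.4, so replicates 1 and 3 lay near the lowest D6 library. Of these genes Col1a1 had the highest level at D6, and Postn, Lum and Pdgfrb averaged at most 0.268 CPM in every group. Myeloid markers summed to 10.6 to 28.1 CPM and T cell markers to 1.10 to 3.08 in every library, and C1qa and S100a9 had no counts in any. The main counts that rest on IgG1 PC are also given without its replicates 1 and 3, and those that rest on D6 without its replicates 2 and 3. Each of these refits was chosen after seeing the data and leaves that group with 1 library, which is assumed to vary like the other groups. The IgG1 PC refit also leaves out the library with that group's highest plasma cell marker sum, replicate 1 at 13730 CPM. In such bulk RNA, fewer cells of a type and less RNA per cell cannot be told apart.

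**Figure D1:**
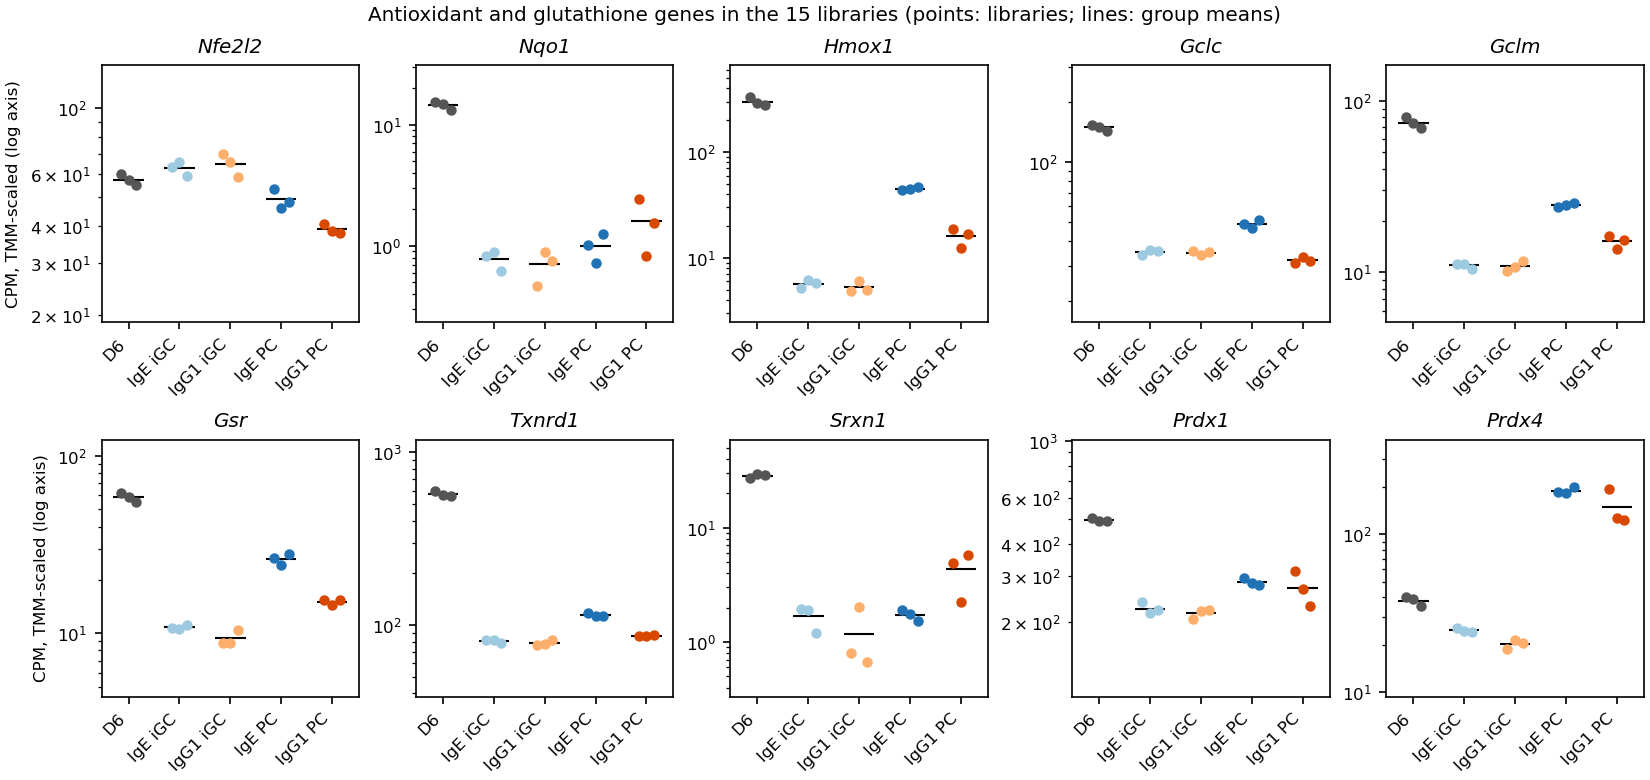
Level of each of the 10 genes in TMM-scaled CPM (log axis, a separate range for each gene) in the 15 libraries. Points are libraries and lines are group means. D6 is highest for 8 genes, Prdx4 is highest in both PC groups, and Nfe2l2 spans less than any other gene.

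The first question is how the antioxidant genes differ between the growing culture and the iGC cells 2 days after feeders and stimulation were removed. All 9 enzyme genes were lower in both iGC groups than at D6. In IgE iGC 9 of the 10 were called lower, where 36.3% of all tested genes were, and 0 higher, where 32.8% were. In IgG1 iGC 9 were called lower and 1 higher, against 36.0% and 32.4% of all tested genes. The median log2 fold change of the 10 was -2.60 in IgE iGC and -2.71 in IgG1 iGC, against -0.04 over all tested genes in both. Both comparisons share the D6 libraries.

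Nfe2l2 (chr2:75675513-75704641, minus strand), the regulator itself, did not share this fall. Its level was 60.0, 57.1 and 55.2 CPM at D6, 63.2, 65.9 and 59.0 in IgE iGC, and 69.8, 65.6 and 58.5 in IgG1 iGC. The ranges overlap. Its log2 fold change against D6 was 0.13 in IgE iGC (SE 0.07, adjusted p = 0.124) and 0.17 in IgG1 iGC (SE 0.07, adjusted p = 0.0454). The second call was lost in 7 of 10 alternative settings, including DESeq2 and the fit without D6 replicates 2 and 3 (0.11). In IgE iGC the gene was called higher in 2 of 10 settings. These were the fit without immunoglobulin genes (0.19) and the fit with only the groups compared (0.18).

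Hmox1 (chr8:75093621-75100589, plus strand) encodes haem oxygenase 1, which splits haem into biliverdin, iron and carbon monoxide. It had the widest range of the 10, with 330.1, 290.5 and 277 CPM at D6, 5.16, 6.14 and 5.84 in IgE iGC, and 4.93, 6.01 and 4.95 in IgG1 iGC. Every D6 library lay far above every iGC library. The gene fell by 5.72 on the log2 scale in IgE iGC (SE 0.15, adjusted p = 2.48e-13), a 52.6-fold difference, and by 56.4-fold in IgG1 iGC. The iGC groups kept 1.91% and 1.77% of the D6 level.

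Nqo1 (chr8:107388225-107403206, minus strand), a quinone reductase often used as a reporter of NRF2 activity, was at 15.5, 14.8 and 13.2 CPM at D6. In IgE iGC it was at 0.819, 0.889 and 0.62, and in IgG1 iGC at 0.466, 0.886 and 0.753, from 12 to 36 counts per library. Srxn1 (chr2:152105516-152111376, plus strand) encodes sulfiredoxin, which repairs over-oxidised peroxiredoxins. Its levels were 26.9, 29.4 and 28.5 CPM at D6, 1.96, 1.89 and 1.19 in IgE iGC, and 0.809, 2.04 and 0.666 in IgG1 iGC. Both genes were thus at a few percent of D6 in iGC and near the limit of counting. In IgE iGC Nqo1 was 18.2-fold lower (adjusted p = 1.67e-08) and Srxn1 16.2-fold lower (adjusted p = 2.01e-07).

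The glutathione enzymes fell together. Gclc (chr9:77754535-77794485, plus strand) and Gclm (chr3:122245557-122270732, plus strand) encode the catalytic and modifier subunits of glutamate-cysteine ligase, the rate-limiting step of glutathione synthesis. Gsr (chr8:33652523-33698163, plus strand) encodes glutathione reductase, which returns oxidised glutathione to its thiol form with NADPH. Gclc was at 152.6, 150.1 and 142.9 CPM at D6, 33.9, 35.9 and 35.4 in IgE iGC, and 35.7, 33.9 and 35.1 in IgG1 iGC. Gclm was at 80.4, 73.9 and 69.3 CPM at D6, 11.2, 11.3 and 10.5 in IgE iGC, and 10.2, 10.8 and 11.6 in IgG1 iGC. Gsr was at 62.0, 58.8 and 55.3 CPM at D6, 10.7, 10.6 and 11.2 in IgE iGC, and 8.78, 8.86 and 10.5 in IgG1 iGC. For each gene no D6 library came near an iGC library, and the replicates of a group lay close together. The log2 fold changes in IgE iGC against D6 were -2.08 for Gclc (SE 0.05, adjusted p = 1.83e-13), -2.76 for Gclm (SE 0.08, adjusted p = 5.89e-13) and -2.44 for Gsr (SE 0.08, adjusted p = 1.46e-12). The modifier subunit fell further than the catalytic one, to 14.7% of D6 against 23.6%, and these shares were 14.6% and 23.5% in IgG1 iGC. That difference between the subunits was not tested. Counts of Gclm and Prdx1 were estimated in part from reads shared with other sequences, since they were not whole numbers in 14 and 15 libraries, and the other 8 genes had whole counts throughout.

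Txnrd1 (chr10:82833951-82897712, plus strand) encodes the cytosolic thioredoxin reductase. It was at 594, 569 and 557 CPM at D6, 81.6, 81.9 and 78.9 in IgE iGC, and 76.6, 77.9 and 81.2 in IgG1 iGC. It fell by 2.83 on the log2 scale in IgE iGC (SE 0.05, adjusted p = 3.92e-15), 7.10-fold, and 7.30-fold in IgG1 iGC.

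The peroxiredoxins were lower by less. Prdx1 (chr4:116685544-116700822, plus strand), an abundant cytosolic thiol peroxidase, was at 505, 489.7 and 488 CPM at D6, 238, 216 and 222 in IgE iGC, and 206, 219.8 and 223 in IgG1 iGC. Prdx4 (chrX:155323918-155340754, minus strand), the ER member, was at 40.0, 38.8 and 35.3 CPM at D6, 25.4, 24.5 and 24.2 in IgE iGC, and 18.8, 21.4 and 20.4 in IgG1 iGC. Neither gene's iGC libraries reached the D6 range. Prdx1 was 2.19-fold lower in IgE iGC (adjusted p = 1.28e-08) and Prdx4 1.54-fold lower (adjusted p = 8.88e-04).

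Fibroblast RNA moved with this comparison, since 11 of the 12 fibroblast genes tested were lower in each iGC group than at D6. The part of feeder RNA in the D6 levels was not tested. Without D6 replicates 2 and 3 the 9 enzyme genes were called lower in both iGC groups, in a fit with 1 D6 library whose fibroblast sum, 242.5 CPM, was itself above the iGC range. The IgG1 PC replicate 1 library, with a fibroblast sum of 204.8 CPM against 242.5 in D6 replicate 1, had 18.9 CPM of Hmox1 against 330.1. In the same pair of libraries Txnrd1 was at 86.0 against 594 CPM, Nqo1 at 2.41 against 15.5 and Srxn1 at 4.93 against 26.9. Single fibroblast markers differed unevenly between these groups. In mean level Col3a1 was at 5.80 CPM in IgG1 PC against 6.68 at D6, and Col1a1 at 65.1 against 124.6. Col5a1 was at 6.19 against 20.3, Lox at 1.19 against 22.8 and Ccn2 at 0 against 3.26. A similar sum thus need not mean a similar level of each marker.

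**Figure D2:**
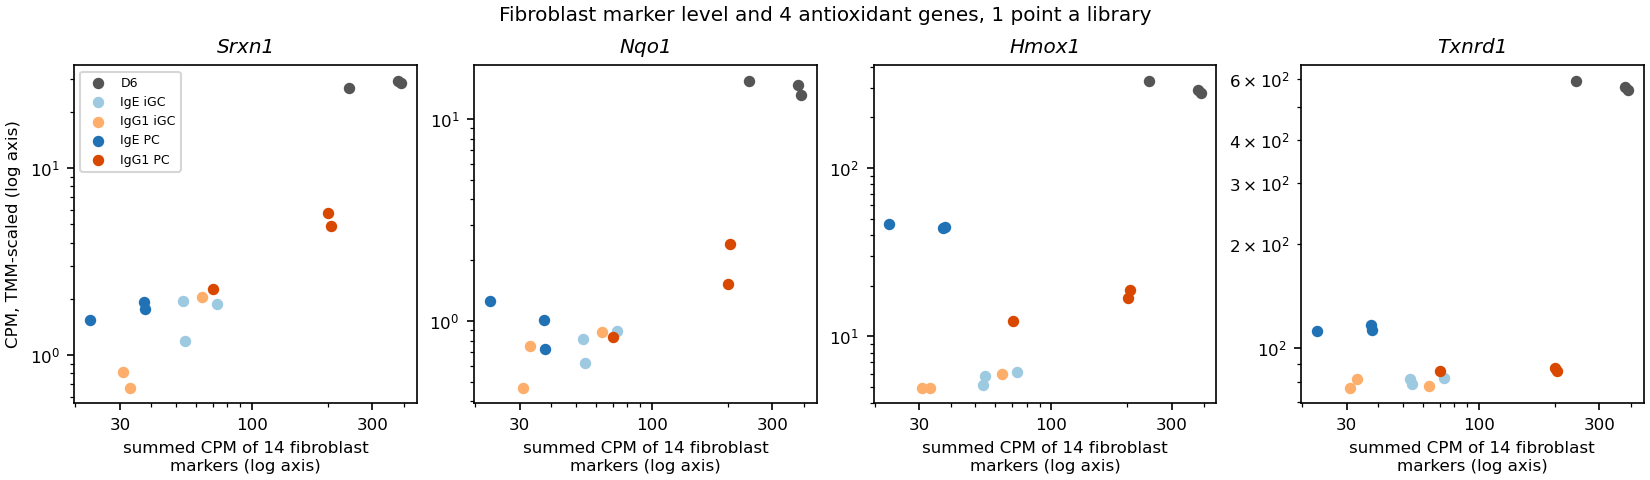
Level of Srxn1, Nqo1, Hmox1 and Txnrd1 (TMM-scaled CPM, log axis) against the summed CPM of 14 fibroblast marker genes (log axis), with 1 point for each of the 15 libraries. IgG1 PC replicates 1 and 3 sit near the D6 libraries on the horizontal axis at 204.8 and 200.4, and lie well below them for all 4 genes. The sum hides uneven markers: mean Lox was 22.8 CPM at D6 and 1.19 in IgG1 PC, mean Col3a1 6.68 and 5.80.

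The next question is whether the isotype matters before the plasma cell stage. Between IgE iGC and IgG1 iGC 0 of the 10 genes were called by edgeR, where 1.99% of all tested genes were called higher and 1.88% lower. DESeq2 also called 0, and 1 gene, Gsr, had an unadjusted p under 0.05. The libraries of the groups did not overlap for Gsr (log2 fold change 0.21, 95% interval 0.03 to 0.38, adjusted p = 0.226) and Prdx4 (0.29, -0.01 to 0.59, adjusted p = 0.359). With only these 6 libraries in the fit, Prdx4 was called higher in IgE iGC at 0.28. Of the 8 plasma cell markers 5 were also called higher in IgE iGC, among them Jchain, the joining chain of polymeric antibodies, at 1.42 (SE 0.18). The intervals leave room for log2 differences of Srxn1 from -0.33 to 1.46 and of Hmox1 from -0.23 to 0.43, and were narrowest for Txnrd1 (-0.06 to 0.14).

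In plasma cells of both isotypes Prdx4, Hmox1, Gsr and Gclm were higher than in the iGC cells of the same isotype by edgeR, while Nfe2l2 was lower. On the authors' TPM, which was fitted without TMM scaling, the IgG1 rises of Gsr and Gclm were not called. In IgE PC against IgE iGC 7 of the 10 genes were called higher, where 30.5% of all tested genes were, and 1 lower, where 33.6% were. In IgG1 PC against IgG1 iGC 8 were called higher and 2 lower, against 30.1% and 29.0% of all tested genes. The medians of the 10 log2 fold changes were 0.49 and 0.58, against -0.08 and 0.01 over all tested genes. In the IgG1 comparison on the authors' TPM, 2 were called higher and 4 lower. Without IgG1 PC replicates 1 and 3, 5 genes were called higher and 1 lower in the IgG1 comparison. With total-count scaling 4 were called higher and 1 lower in the IgE comparison, and Prdx4, Hmox1, Gsr and Gclm were those 4.

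Prdx4 rose in both. It was at 186.0, 182 and 199 CPM in IgE PC and at 194, 127 and 122.5 in IgG1 PC. Every plasma cell library lay above every other library, by a wide margin over the 40.0 CPM of the highest D6 library. Its log2 fold change against iGC was 2.94 in IgE (SE 0.14, adjusted p = 7.49e-11) and 2.87 in IgG1 (SE 0.14, adjusted p = 2.65e-10), 7.65-fold and 7.31-fold.

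Hmox1 rose in both, and further in IgE. It was at 44.1, 44.6 and 46.6 CPM in IgE PC and at 18.9, 12.3 and 17.0 in IgG1 PC. The plasma cell libraries fell between the iGC and D6 ranges without touching either. The log2 fold change was 2.99 in IgE (SE 0.14, adjusted p = 3.82e-11), 7.93-fold, and 1.59 in IgG1 (SE 0.14, adjusted p = 1.60e-07), 3.01-fold. Even so, IgE PC held 15.1% of the D6 level and IgG1 PC 5.37%.

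Of the glutathione genes, Gsr was at 26.6, 24.3 and 28.0 CPM in IgE PC and 15.5, 14.5 and 15.3 in IgG1 PC. It rose 2.43-fold in IgE (log2 1.28, SE 0.08, adjusted p = 8.47e-10) and 1.61-fold in IgG1 (0.69, SE 0.08, adjusted p = 2.84e-06). Gclm was at 24.0, 24.7 and 25.5 CPM in IgE PC and 16.3, 13.7 and 15.5 in IgG1 PC, 2.24-fold and 1.39-fold above the iGC cells of each isotype. On the authors' TPM the IgG1 log2 differences were 0.04 for Gsr and -4e-04 for Gclm. Gclc, the catalytic subunit, did not follow in IgG1. It was at 48.6, 46.6 and 51.2 CPM in IgE PC, above all iGC libraries, and at 31.1, 33.3 and 31.5 in IgG1 PC, below them. Its log2 fold change was 0.48 in IgE (SE 0.05, adjusted p = 7.58e-07) and -0.13 in IgG1 (SE 0.05, adjusted p = 0.0489). The small IgG1 difference was no longer called in 5 of 10 other settings and in 5 of 6 fits that left out 1 library, with a log2 fold change of -0.07 without IgG1 PC replicates 1 and 3.

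Txnrd1 was at 116.5, 112.7 and 112.4 CPM in IgE PC and 86.0, 85.9 and 87.5 in IgG1 PC, log2 fold changes of 0.49 (SE 0.05, adjusted p = 1.29e-07) and 0.14 (SE 0.05, adjusted p = 0.0178). Prdx1 was at 296.5, 284 and 278 CPM in IgE PC and 315, 268 and 231 in IgG1 PC, with nearly equal changes of 0.34 (adjusted p = 0.00214) and 0.33 (adjusted p = 0.00388). These rises depend on the scaling. With total counts in place of TMM, which puts the median of all tested genes at -0.55 in IgE and -0.22 in IgG1, Prdx1 in IgE changed sign to -0.12 and Txnrd1 in IgG1 to -0.09, and in IgE Txnrd1 (0.03) and Gclc (0.01) were no longer called. On the authors' TPM the log2 differences were -0.40 and -0.43 for Prdx1 and -0.18 and -0.40 for Txnrd1, in IgE and IgG1. Gclc in IgE was also lower on that scale, at -0.25. TPM was fitted without TMM scaling, and the median of all tested genes on it is not given here. A shift common to many genes thus cannot be told apart from a fall of these genes.

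Nfe2l2 fell in both plasma cell groups. It was at 53.4, 45.9 and 48.3 CPM in IgE PC and 40.6, 38.4 and 37.8 in IgG1 PC. No plasma cell library reached an iGC library of its isotype. The gene fell by 0.35 on the log2 scale in IgE (SE 0.07, adjusted p = 5.19e-04) and by 0.73 in IgG1 (SE 0.07, adjusted p = 5.55e-07). By edgeR the RNA of the regulator and of Hmox1, Gclm and Gsr thus moved in opposite directions in the same libraries. In IgG1 this was not so on the authors' TPM for Gsr (0.04) and Gclm (-4e-04), which were not called.

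Nqo1 and Srxn1 were low in plasma cells. Nqo1 was at 1.02, 0.726 and 1.25 CPM in IgE PC and 2.41, 0.83 and 1.53 in IgG1 PC. Srxn1 was at 1.92, 1.77 and 1.53 CPM in IgE PC and 4.93, 2.26 and 5.76 in IgG1 PC. In IgG1 PC the replicate with the lowest fibroblast sum, replicate 2, had the lowest level of both. That replicate was also lowest for Hmox1, Gclm, Gsr and, narrowly, Txnrd1. It lay between the others for Nfe2l2, Prdx1 and Prdx4 and was highest for Gclc. In IgE neither Nqo1 nor Srxn1 was called. Their log2 fold changes were 0.32 for Nqo1 (95% interval -0.44 to 1.09) and 0.01 for Srxn1 (-0.87 to 0.88). In IgG1 both were called higher, by 1.14 for Nqo1 (SE 0.33, adjusted p = 0.00886) and 1.86 for Srxn1 (SE 0.38, adjusted p = 7.51e-04). Without IgG1 PC replicates 1 and 3 these became 0.25 and 0.94 and were not called. On log2(TPM + 1) the IgG1 differences were 0.24 for Nqo1 and 0.47 for Srxn1, and neither was called. The added 1 shrinks differences at such levels. Mean TPM of Nqo1 was 0.753 in IgG1 iGC and 1.09 in IgG1 PC, and that of Srxn1 was 0.963 and 1.73. With only the groups compared in the fit, Nqo1 was at 1.18 and not called. In IgG1 PC against IgG1 iGC 10 of the 12 fibroblast genes tested were higher in IgG1 PC, Col1a1 by 1.99 (SE 0.40).

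The direct comparison of plasma cells asks which antioxidant genes differ by isotype. In IgE PC against IgG1 PC 7 of the 10 genes were called higher, where 27.4% of all tested genes were, and 1 lower, where 30.7% were. The median of the 10 was 0.38, against -0.05 over all tested genes. With total-count scaling, which puts that median of all genes at -0.30, 5 were called higher and 2 lower. Hmox1 differed most, 2.83-fold (log2 1.5, SE 0.12, adjusted p = 9.60e-08). Gsr followed at 1.74-fold (0.80, SE 0.08, adjusted p = 4.20e-07), then Gclm at 1.63-fold (0.71, SE 0.08, adjusted p = 1.73e-06) and Gclc at 1.52-fold (0.61, SE 0.05, adjusted p = 1.21e-07). Txnrd1 was 1.32-fold higher (0.40, SE 0.05, adjusted p = 3.13e-06) and Nfe2l2 1.26-fold (0.34, SE 0.07, adjusted p = 0.00102). For these 6 genes every IgE PC library was above every IgG1 PC library. For Nfe2l2 the call was lost when libraries were scaled by total counts (0.09) and on TPM (0.17).

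Markers of cell stage moved with this comparison. Of 8 plasma cell markers 6 were called higher in IgE PC than in IgG1 PC (median log2 fold change 0.78), and of 8 B cell markers 5 were called lower (median -0.815), among them the B cell factor Pax5 at -1.16 (SE 0.15). The B cell markers summed to 3874 to 4087 CPM in IgE PC and 5213 to 5478 in IgG1 PC, ranges that do not overlap. The part of cell stage in the isotype differences of the 10 genes was not tested.

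The peroxiredoxins did not separate the isotypes clearly. Prdx4 was called higher in IgE PC at 0.36 (SE 0.13, adjusted p = 0.0277), but its libraries overlap, because IgG1 PC replicate 1 reached 194 CPM. That library also had the highest plasma cell marker sum of IgG1 PC, 13730 CPM against 10090 and 9342. The Prdx4 call was lost in 3 of 10 other settings and in 4 of 6 fits without 1 library. Prdx1 differed by 0.08, with an interval from -0.10 to 0.26 (adjusted p = 0.452). Srxn1 was lower in IgE PC, with a log2 fold change of -1.29 (SE 0.36, adjusted p = 0.00768), and Nqo1 was not called (-0.62, -1.32 to 0.07, adjusted p = 0.115). Here too fibroblast genes moved with the result: 10 of the 12 tested were lower in IgE PC, with Col1a1 at 11.8 CPM against 65.1. Without IgG1 PC replicates 1 and 3, 7 genes were called higher and 0 lower, with 1 IgG1 PC library: Prdx4 was at 0.58, Srxn1 was no longer called (-0.36), and Nqo1 turned to 0.27, also not called.

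**Figure D3:**
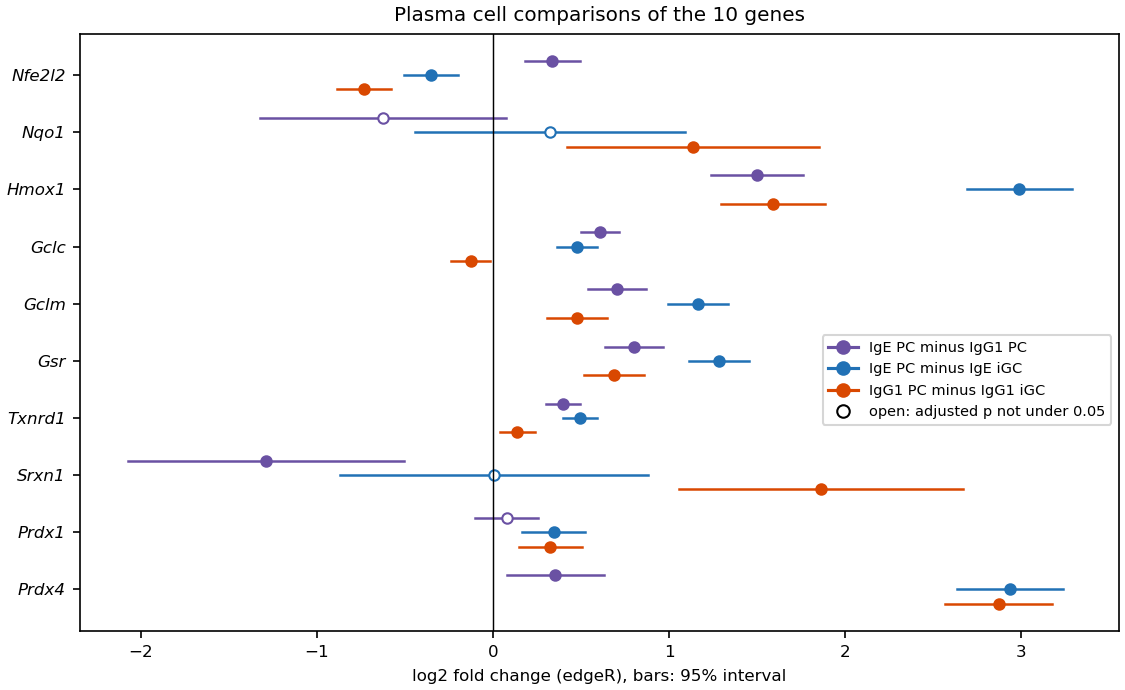
Log2 fold changes of the 10 genes (edgeR, horizontal bars are 95% intervals) in IgE PC against IgG1 PC, IgE PC against IgE iGC and IgG1 PC against IgG1 iGC, with open points where the adjusted p was not under 0.05. Hmox1, Gclc, Gclm, Gsr and Txnrd1 lie above 0 in both IgE PC comparisons, Prdx4 shows nearly the same rise in both isotypes, and Srxn1 has the widest intervals.

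Whether the step from iGC to PC was itself different in the isotypes was tested by the interaction of cell stage and isotype. Of the 10 genes 6 were called with a more positive change in IgE, where 19.8% of all tested genes were, and 1 with a more negative one, where 23.1% were. The difference in log2 change was 1.40 for Hmox1 (SE 0.20, adjusted p = 5.67e-05), 0.69 for Gclm (SE 0.11, adjusted p = 1.95e-04), 0.60 for Gclc (SE 0.07, adjusted p = 1.41e-05) and 0.59 for Gsr (SE 0.11, adjusted p = 6.07e-04). It was 0.36 for Txnrd1 (SE 0.07, adjusted p = 4.89e-04) and 0.38 for Nfe2l2 (SE 0.10, adjusted p = 0.00767), whose fall was smaller in IgE. Both of these were lost with total-count scaling (0.12 and 0.14) and on TPM (0.22 and 0.23), and on TPM Gclc (0.33) and Gsr (0.38) were also not called. Srxn1 had -1.86 (SE 0.55, adjusted p = 0.0150), which was not called on TPM (-0.86) or without IgG1 PC replicates 1 and 3 (-0.93). The TPM value is on log2(TPM + 1), where the added 1 shrinks differences at the low levels of Srxn1. For the peroxiredoxins no difference was shown: Prdx4 had 0.07, with an interval from -0.34 to 0.47, and Prdx1 0.02, from -0.24 to 0.27. Without IgG1 PC replicates 1 and 3 Prdx4 had 0.30 and was called.

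Against D6, all of the 10 genes except Prdx4 were lower in both plasma cell groups. In IgE PC 9 of the 10 genes were called lower, where 39.5% of all tested genes were, and 1 higher, where 36.9% were. In IgG1 PC 9 were called lower and 1 higher, against 36.0% and 35.9%. The gene called higher was Prdx4 in both, at 4.97-fold and 3.88-fold the D6 level. IgE PC held 44.8% of the D6 level of Gsr, 33.2% of Gclm, 32.9% of Gclc, 19.9% of Txnrd1 and 6.15% of Srxn1. The matching shares in IgG1 PC were 25.7%, 20.4%, 21.5%, 15.1% and 15.3%. Nfe2l2 stood at 85.6% in IgE PC and 67.8% in IgG1 PC, and its call in IgE PC was lost without immunoglobulin genes (-0.11) and in 3 of 6 fits without 1 library. Without D6 replicates 2 and 3, or without IgG1 PC replicates 1 and 3, all 10 genes were called in the same directions. In the second of these Srxn1 moved from -2.72 to -3.58 on the log2 scale and Nqo1 from -3.24 to -4.06.

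The deposited TPM, which is scaled by transcript length, allows the genes to be ranked against each other within a group. Prdx1 was the most abundant of the 10 in all 5 groups, at 929 ± 9.14 TPM at D6 (SD, n = 3), 374 ± 19.5 in IgG1 iGC and 289 ± 14.4 in IgE PC. Prdx1 made up 46.9% of the summed TPM of the 10 genes at D6, 68.5% in IgE iGC and 46.8% in IgE PC. Hmox1 ranked second at D6 with 17.6% of the sum and contributed 1.10% in IgE iGC. In plasma cells the second place went to Prdx4, with 31.4% of the sum in IgE PC and 30.6% in IgG1 PC, against 3.65% at D6. From the growing culture to plasma cells the shares of Hmox1 and Txnrd1 thus fell and that of Prdx4 rose, while Prdx1 stayed first.

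Other genes of the pathway give the setting of the 10. In IgE PC against IgG1 PC, 27.4% of all tested genes were called higher and 30.7% lower, and the list counts in that comparison stand against these shares. Among 12 regulators of NRF2 signalling, 8 were higher and 1 lower in IgE PC than in IgG1 PC (median log2 fold change 0.53), 7 and 4 with total-count scaling, and 8 and 2 without IgG1 PC replicates 1 and 3. The largest of the abundant ones were Nfe2l1, an NRF2 relative that controls proteasome genes, at 1.31 (SE 0.07), Sqstm1, the p62 adaptor that can bind KEAP1, at 1.24 (SE 0.10), and the repressor Bach1 at 1.04 (SE 0.10). The list counts genes that restrain NRF2, such as Keap1 and Bach1, with other regulators, so its count gives no direction of NRF2 activity. The repressor Bach2, which is lost as B cells become plasma cells, fell by 2.25 in IgE PC and by 1.63 in IgG1 PC against iGC. Against D6, 7 of the 12 regulators were lower in IgE iGC and 2 higher, where 36.3% and 32.8% of all tested genes were, with Sqstm1 at -1.78 (SE 0.10) and the small MAF gene Mafg at -1.28 (SE 0.07).

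Genes that supply cysteine for glutathione were called in both directions. Of 12 genes for cystine supply and glutathione synthesis, 6 were higher and 4 lower in IgE PC than in IgG1 PC (median 0.30), 5 each way with total-count scaling, and 6 and 3 without IgG1 PC replicates 1 and 3. Slc7a11 and Slc3a2, which form the cystine antiporter, were at 3.06 (SE 0.19) and 2.23 (SE 0.10), and Cth, which makes cysteine from cystathionine, at 2.20 (SE 0.09). In mean level, Slc3a2 was 1716 ± 107 CPM in IgE PC, 365 ± 69.1 in IgG1 PC and 69.3 ± 1.89 in IgE iGC. Slc7a11 was 29.2 ± 2.20 CPM in IgE PC, 3.45 ± 0.773 in IgG1 PC and 0.62 ± 0.224 in IgE iGC. Chac1, which degrades glutathione, also rose from iGC to PC, by 4.54 in IgE (SE 0.18) and 3.45 in IgG1 (SE 0.18).

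Of 21 enzymes that use glutathione, 14 were lower in IgE PC than in IgG1 PC and 3 higher (median -0.40). Without IgG1 PC replicates 1 and 3, 8 were lower and 4 higher (median -0.28). Among them were the microsomal transferase Mgst2 at -1.03 (SE 0.10), the peroxidase Gpx1 at -0.78 (SE 0.06) and the omega transferase Gsto1 at -0.68 (SE 0.10). These 3 were also lower without replicates 1 and 3. Of 15 further thioredoxin and peroxiredoxin genes, 5 were higher and 7 lower in IgE PC, and 4 each way without IgG1 PC replicates 1 and 3. Sesn2, a stress-induced sestrin, was at 1.79 (SE 0.08) and its relative Sesn3 at -0.96 (SE 0.16).

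Of 12 ER oxidative folding genes, 11 were higher and 1 lower in IgE PC than in IgG1 PC (median 0.83), and 11 and 0 without IgG1 PC replicates 1 and 3. The oxidase Ero1a was at 1.96 (SE 0.08), and the disulphide isomerases Pdia4 and Pdia3 at 1.22 (SE 0.09) and 1.17 (SE 0.09). All 12 rose from iGC to PC in IgE (11 with total-count scaling) and 11 did in IgG1, where 30.5% and 30.1% of all tested genes did. Of 8 haem and iron genes, 1 was higher and 4 lower in IgE PC than in IgG1 PC (2 and 4 without IgG1 PC replicates 1 and 3), including the transferrin receptor Tfrc at -0.75 (SE 0.14), ferritin heavy chain Fth1 at -0.63 (SE 0.07) and biliverdin reductase Blvrb at -0.60 (SE 0.08). Of 9 genes for NADPH supply, 3 were higher and 2 lower (6 and 2 without IgG1 PC replicates 1 and 3, 2 and 5 with total-count scaling), near the shares of all tested genes, with the mitochondrial folate enzyme Mthfd2 at 1.34 (SE 0.07). Of 8 genes that make or remove superoxide and hydrogen peroxide, 3 were higher and 4 lower (1 and 4 with total-count scaling, 4 and 4 without IgG1 PC replicates 1 and 3). The NADPH oxidase subunits Cybb and Cyba lay on opposite sides, at 0.69 (SE 0.07) and -0.62 (SE 0.09). In the step from D6 to IgE iGC the NADPH-producing malic enzyme Me1 fell by 4.22 (SE 0.36).

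**Figure D4:**
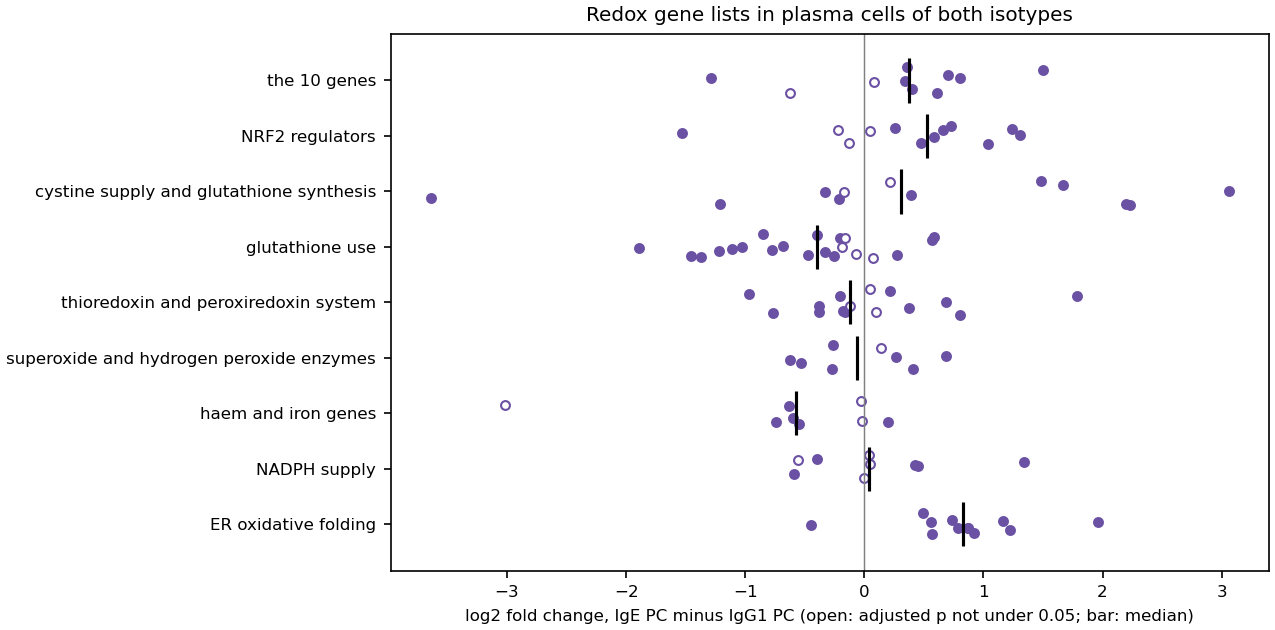
Log2 fold change in IgE PC against IgG1 PC (edgeR) for the 10 genes and 8 lists of related redox genes, with 1 point a gene, open where the adjusted p was not under 0.05, and a bar at each list's median. ER oxidative folding (median 0.83) and NRF2 regulators (0.53) lie mostly above 0, and glutathione use (-0.40) mostly below.

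Across the 15 libraries several of the 10 genes had closely similar patterns. Gsr and Hmox1 had a Pearson correlation of 0.994 in log2 CPM, Txnrd1 and Gclc 0.991, and Gclm and Hmox1 0.990, while Prdx4 and Nfe2l2 had -0.835. These values describe libraries that share groups and scaling. For the 4 members with the widest range of group means, the genes with the most similar pattern were found among all genes tested. For Hmox1 they were Cdkn1a (0.993), Mrfap1 (0.990) and Rptor (0.990), and Cdkn1a was at 199.5 CPM at D6, 11.3 in IgE iGC and 51.3 in IgE PC. For Nqo1 they were Trip10 (0.991), Me1 (0.984) and Cct7 (0.981). For Srxn1 they were Wdfy3 (0.986), Fat1 (0.985) and Tnfrsf12a (0.983), each of which was higher in IgG1 PC than in IgE PC in mean level, as was Srxn1. For Prdx4 they were Ssr2 (0.998), Ddost (0.998) and Cptp (0.996), the first a subunit of the translocon-associated complex and the second of the oligosaccharyltransferase.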

How the data were processed

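Poly(A) RNA of 15 libraries was sequenced as strand-specific single-end reads of 76 bp, per the labels' protocols. Each group and replicate number came from the library's title. The submitters' processing notes name cutadapt 1.9.1, STAR 2.5.2a, RSEM 1.3.0, DESeq2 1.12.3 and GRCm38; the annotation release is not given in the sources used here. The authors deposited, per the file headers, RSEM expected counts and TPM for 51912 Ensembl identifiers, of which 51633 were given a symbol from a table of gene names. RSEM divides reads shared between similar sequences, and TPM is relative to the library, so it depends on the other transcripts in it. Coordinates are from GENCODE vM21 (GRCm38).

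Expected counts were rounded and filtered with filterByExpr (minimum count 10, minimum total 15), which left 15692 genes. Libraries were scaled by TMM, and all 15 were fitted with 1 mean per group in edgeR 4.0.16 (R 4.3.3; robust glmQLFit, glmQLFTest). The biological coefficient of variation was 10.4%, with 10 residual degrees of freedom. Genes were called at a Benjamini-Hochberg adjusted p under 0.05 over all genes tested, in each of 9 comparisons. The SE is the log2 fold change divided by the square root of F. Positive values mean higher in the first-named group. Code was tested on simulated data.

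Alternatives were DESeq2 1.42.0, other scalings, filters and samples, a replicate block, limma 3.58.1 on log2(TPM + 1), and leaving out each library. The fits without IgG1 PC replicates 1 and 3 or D6 replicates 2 and 3 were chosen after seeing the data. The 10 genes and the 13 other lists were chosen with earlier results of these data known. Named in the text are the 10 genes. Per list and comparison, up to 3 called genes with the largest change that reach 10 CPM in a group are named. For the 4 members with the widest range, the 3 genes of highest correlation among those searched are also named. Replicates of a group had correlations of 0.978 to 0.993, and none were identical. The labels mention no molecular identifiers, so reads may repeat a molecule and depth speaks to counting error only.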

Additional observations from a re-analysis of the deposited data

Results flagged for a closer look

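By edgeR's test of the interaction, 7 of the 10 genes changed differently from iGC to PC in IgE than in IgG1. The difference in log2 change (IgE minus IgG1) was 1.40 for Hmox1, 0.69 for Gclm, 0.60 for Gclc, 0.59 for Gsr, 0.38 for Nfe2l2 and 0.36 for Txnrd1. With total-count scaling Nfe2l2 (0.14) and Txnrd1 (0.12) were not called, and on TPM Nfe2l2 (0.23), Txnrd1 (0.22), Gclc (0.33) and Gsr (0.38) were not. For Srxn1 the difference was -1.86. On log2(TPM + 1), where the added 1 shrinks differences at its low levels, it was -0.86 and not called. It was -0.93 without IgG1 PC replicates 1 and 3, the libraries with the higher fibroblast marker sums, where it was not called. In that fit, with 1 IgG1 PC library, the other 6 were called.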

How the results depend on the processing

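Of the 90 values for 10 genes in 9 comparisons, 64 kept their call under every alternative run for them (up to 9 planned settings, 1 added fit and the fits without 1 library). On the authors' TPM (limma) 6 genes were called in IgG1 PC against IgG1 iGC (2 higher, 4 lower) and 2 in the interaction, against 10 and 7 with edgeR. Direction changed on TPM in IgE PC against IgE iGC for Gclc (-0.25), Txnrd1 (-0.18) and Prdx1 (-0.40), and in IgG1 PC against IgG1 iGC for Gclm (-4e-04), Txnrd1 (-0.40) and Prdx1 (-0.425). Under total-count scaling it changed for Prdx1 in IgE PC against IgE iGC (-0.12) and Txnrd1 in IgG1 PC against IgG1 iGC (-0.0942), and 5 genes were called in the former against 8. With only the groups compared, 1 gene was called between the iGC groups against 0. Without IgG1 PC replicates 1 and 3, 6 genes were called in IgG1 PC against IgG1 iGC, with 1 library in the PC group. The cause of these changes was not tested. Leaving out 1 library gave 7 to 9 genes called in IgE PC against IgG1 PC, 0 between the iGC groups, 8 in IgE PC against IgE iGC, 7 to 10 in IgG1 PC against IgG1 iGC, 7 to 8 in the interaction, and 9 to 10 against D6. Over all genes, 607 were called between the iGC groups, 923 with DESeq2, 1503 with only those groups and 324 to 404 without 1 library, and the interaction had 6733, against 4345 with limma on TPM. Same-numbered libraries showed little shared deviation from their group means, with correlations from -0.195 to 0.091. In 1 of 10 pairs of groups each library correlated best with its own number. Such correlations cannot show whether same-numbered libraries came from a shared culture or animal, which the labels do not say. With the replicate block, 9 genes instead of 10 were called in IgG1 PC against IgG1 iGC (Gclc, -0.13), and no other call of the 10 genes changed. Depth limits Nqo1 and Srxn1 in the sorted groups, where as few as 12 and 23 counts lie behind a value.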
